A study of Homo sapiens with 15 samples.

Results

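The 37 lysosome and autophagy genes described here were taken by symbol from both count tables of the series, and make up 37 of the 62700 genes in each table. They fall into 5 role groups: the TFEB family of transcription factors (3 genes), lysosomal hydrolases (11), lysosomal membrane and lipid or ion export proteins (5), subunits of the V-ATPase proton pump (8) and autophagy factors (10). RNA came from 143B, an established human osteosarcoma cell line, labelled as bone and osteosarcoma, with 3 libraries for each of 5 conditions. In the first table, wild-type 143B cells were grown attached in DMEM with serum and pyruvate (non-OSC) or as osteosarcoma stem cells (OSC) in serum-free DMEM/F12 tumorsphere medium with B27 supplement, EGF and basic FGF. In the second table, 143B OSCs carried a lentiviral control vector (shCtrl) or a lentiviral short hairpin against PDK1, a kinase that inhibits pyruvate dehydrogenase (shPDK1#1 or shPDK1#2). Attachment, serum and growth factors changed together between non-OSCs and OSCs, so their shares in a difference cannot be told apart. All cells come from 1 line, each hairpin is 1 construct, and both hairpins share the 3 shCtrl libraries.

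Lysosomes are acidic organelles in which hydrolases break down proteins, glycans and lipids delivered by endocytosis and autophagy. The V-ATPase pumps protons into the lumen, membrane proteins such as LAMP1 and LAMP2 line the organelle, and NPC1 and NPC2 pass cholesterol out of it. In autophagy, ULK1 and the BECN1-ATG14 lipid kinase complex start a membrane, WIPI1 reads its lipid mark, ATG5 and ATG7 attach proteins of the LC3 and GABARAP families to it, and receptors such as SQSTM1 (p62) and NBR1 tie cargo to it. TFEB, TFE3 and MITF bind E-box motifs with the letters CACGTG near the start of many of these genes, and the mTORC1 kinase keeps TFEB and TFE3 in the cytoplasm when nutrients are plentiful.

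Counts per library summed to between 7992499 and 11256536, and the counts of replicate pairs were further apart than sampling alone gives (chi-square over degrees of freedom 1.96 to 3.56). The labels do not say whether replicates were separate cultures, so p-values measure the spread between these libraries, which may be technical. PDK1 was at 46.6, 44.6 and 44.3 CPM (the usual counts-per-library scale, with totals adjusted by TMM factors of 0.981 to 1.02) in the shCtrl libraries, at 28.9, 27.8 and 27.3 CPM under shPDK1#1 and at 18.2, 21.5 and 19.5 CPM under shPDK1#2, which left 61.9% and 43.7% of the control level. The mitochondrial genome took 2.69% to 3.89% of the counts. Osteoblast lineage markers (8 genes) summed to between 539 and 3790 CPM, mostly through COL1A1 and SPP1. RUNX2 was also present in every condition, but at a lower mean in OSCs (17.3 CPM) than in non-OSCs (37.7 CPM). The condition means of COL1A2 (0.041 to 1.49 CPM), ALPL (1.48 to 2.65 CPM) and BGLAP (0.101 to 0.374 CPM) were low. IBSP was at 0 in all libraries and SP7 was at 0 in 3 of the 5 conditions. Myeloid markers (5 genes) summed to at most 3.48 CPM, endothelial markers (4 genes) to at most 6.71 CPM and lymphocyte markers (5 genes) to at most 0.192 CPM. The 37 genes together took 0.343% to 0.344% of all counts in non-OSCs, 0.462% to 0.467% in OSCs, 0.377% to 0.382% for shCtrl, 0.362% to 0.373% for shPDK1#1 and 0.33% to 0.335% for shPDK1#2. All 37 passed the filter on low counts in both tables.

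Promoter sequences are shown first because they carry the letters that the TFEB family binds. RefSeq promoters (GRCh38.p14, 250 bases before to 50 after the start) were matched for 28 of the 37 genes. CACGTG, which reads the same on both strands, was in 8 of the 28 (28.6%), against 7.43% of all 27305 promoters and 10.1% of the 10754 promoters of genes tested in the OSC table. The longer form TCACGTGA, which also reads the same on both strands and contains CACGTG, was in 5 of the 28 (17.9%), against 1.04% and 1.94%. The motif was picked because it is known near the start of many of these genes. The higher shares are therefore not independent of how genes and motif were chosen. The 8 genes with CACGTG were NEU1, CTSD, LAMP1, ATG14, ATP6V0D1, GAA, MCOLN1 and CTSA. LAMP1 held 6 matches, GAA, MCOLN1 and CTSA held 2 each, and the others held 1 each. Below are the last 200 bases before and the first 10 after the start of the 4 genes with more than 1 match, followed by SQSTM1 and GABARAPL1, which had large changes in OSCs and no match in the window; CACGTG is in capitals.
LAMP1, chr13:113297039-113297248 (+ strand): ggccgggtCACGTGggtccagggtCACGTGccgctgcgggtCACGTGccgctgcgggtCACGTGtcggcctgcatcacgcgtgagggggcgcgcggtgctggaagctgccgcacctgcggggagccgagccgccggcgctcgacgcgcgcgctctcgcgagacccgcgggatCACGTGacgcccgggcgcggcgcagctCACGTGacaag
GAA, chr17:80101381-80101590 (+ strand): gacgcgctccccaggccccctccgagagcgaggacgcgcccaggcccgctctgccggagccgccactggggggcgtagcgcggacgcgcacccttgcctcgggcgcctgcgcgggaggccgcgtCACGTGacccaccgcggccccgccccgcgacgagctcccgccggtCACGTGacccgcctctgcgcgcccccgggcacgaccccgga
CTSA, chr20:45891135-45891344 (+ strand): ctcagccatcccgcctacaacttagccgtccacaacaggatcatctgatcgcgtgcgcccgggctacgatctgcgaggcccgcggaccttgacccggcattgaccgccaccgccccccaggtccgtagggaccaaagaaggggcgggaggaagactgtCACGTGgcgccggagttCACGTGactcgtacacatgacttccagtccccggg
MCOLN1, chr19:7522424-7522633 (+ strand): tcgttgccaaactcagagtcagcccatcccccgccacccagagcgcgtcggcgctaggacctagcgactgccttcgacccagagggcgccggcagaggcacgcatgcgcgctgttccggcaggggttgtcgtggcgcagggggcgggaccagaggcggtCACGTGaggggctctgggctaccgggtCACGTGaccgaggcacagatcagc
SQSTM1, chr5:179806193-179806402 (+ strand): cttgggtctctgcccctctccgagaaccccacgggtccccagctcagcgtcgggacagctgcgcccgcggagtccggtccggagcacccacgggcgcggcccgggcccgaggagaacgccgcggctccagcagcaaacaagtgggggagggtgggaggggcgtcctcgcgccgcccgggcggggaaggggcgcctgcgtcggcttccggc
GABARAPL1, chr12:10212677-10212886 (+ strand): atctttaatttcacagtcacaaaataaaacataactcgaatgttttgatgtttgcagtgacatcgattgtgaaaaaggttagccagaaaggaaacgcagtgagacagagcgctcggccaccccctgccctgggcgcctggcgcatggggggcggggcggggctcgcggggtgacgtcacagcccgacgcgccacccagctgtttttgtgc
In LAMP1 the first 4 matches lay between positions -192 and -137 from the start and the last spanned positions -1 to 4. Such a match is a description of the letters and not evidence of binding, and no match says only that these letters are not in this window. Of the 8 genes with CACGTG, 5 (NEU1, CTSD, ATG14, GAA and CTSA) were higher in OSCs, LAMP1 was lower, and ATP6V0D1 and MCOLN1 did not pass the test. Over all 37 genes, with or without the motif, 59.5% were higher and 10.8% lower in OSCs. Over all genes tested these shares were 32.5% and 31.7%. A link between the motif and the changes was not tested.

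**Figure D1:**
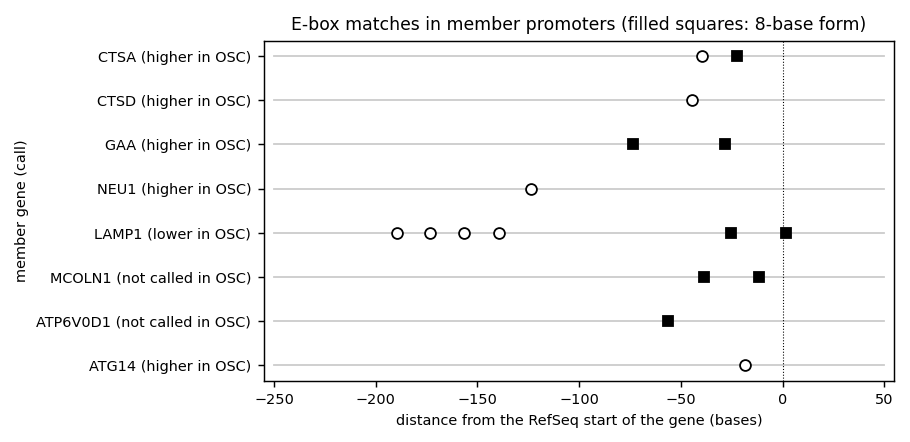
Position of each CACGTG in the promoters of the 8 genes that hold it, in bases from the RefSeq start (x axis; 0 is the start), with 1 gene per line; filled squares lie within TCACGTGA. LAMP1 has 6 matches, and 5 of the 8 genes have a match within TCACGTGA.

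Levels between genes can be compared only per length. Per kilobase of merged exons, the highest mean level in OSCs was that of CTSB (87.4 CPM per kilobase), a cysteine protease, followed by CTSD (68.4), an aspartic protease, and SQSTM1 (64.3). At the other end were TFEB (2.53 CPM per kilobase), ATG7 (2.36), CTSK (0.965) and MITF (0.446). TFE3, at 17.6 CPM per kilobase, was the most abundant transcript of the TFEB family. With the length of the MANE Select transcript in place of merged exons, CTSB was again highest, at 246 CPM per kilobase. The order at the low end changed with that length: MITF (0.689), ATG7 (3.9), CTSK (5.0), MCOLN1 (6.32) and then TFEB (7.3).

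Whether OSCs differ from adherent cells in lysosome and autophagy genes was the first comparison. The largest rises were in autophagy genes and in the protease gene CTSK (4.4-fold): GABARAPL1 was 5.43-fold, WIPI1 4.27-fold, SQSTM1 2.94-fold and ATG14 2.23-fold higher in OSCs (n = 3 libraries per group). Most hydrolases and the cholesterol exporter NPC1 were also higher, while NPC2, ATG7, LAMP1 and ATP6V1A were lower. Of the 37 genes, 22 were higher and 4 lower in OSCs at an edgeR adjusted p under 0.05, where 32.5% and 31.7% of the 14287 genes tested were higher and lower. That is 59.5% and 10.8% of the 37, and their median log2 fold change was 0.29, beside -0.01 for all genes tested. The OSC libraries lay wholly above the non-OSC libraries for 21 of the 37 and wholly below for 3, against 33.8% and 33.0% of all genes tested. In bulk RNA, fewer cells that express a gene and less RNA per cell cannot be told apart.

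**Figure D2:**
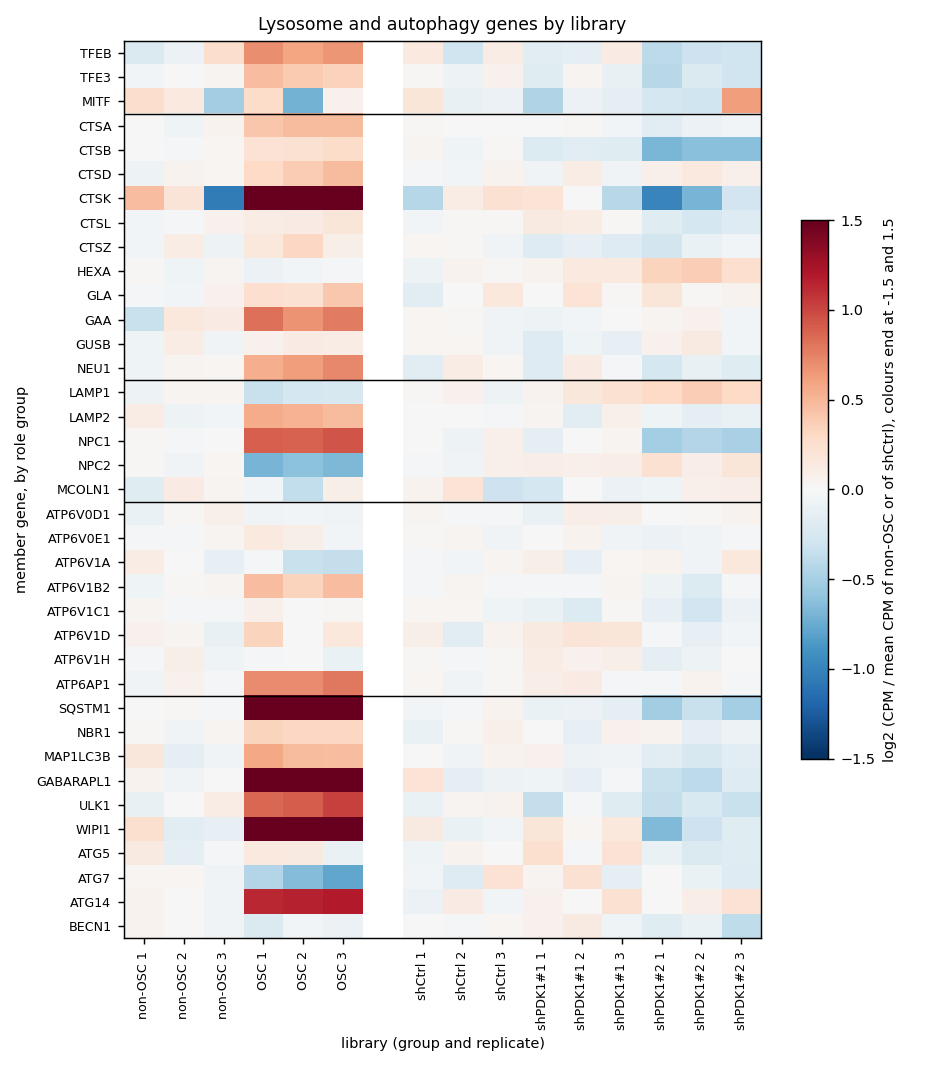
Level of each of the 37 genes in each of the 15 libraries, as log2 of its CPM over the mean of the non-OSC libraries (left block) or of the shCtrl libraries (right block); genes are grouped by role with the colour scale cut at 1.5 in both directions. The SQSTM1, GABARAPL1, WIPI1, ATG14 and CTSK lines are high in all 3 OSC libraries, and the CTSB line is low in all 3 shPDK1#2 libraries.

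Among the transcription factors, TFEB (chromosome 6, 41683978 to 41736259, GRCh38) was at 9.33, 10.2 and 13.0 CPM in non-OSCs and at 17.6, 16.3 and 17.2 CPM in OSCs. TFE3 (chromosome X, 49028726 to 49043410) was at 54.6, 56.0 and 57.5 CPM in non-OSCs and at 77.3, 73.3 and 71.0 CPM in OSCs. For both genes every OSC library exceeded every non-OSC library, with log2 fold changes of 0.66 (SE 0.143; edgeR adjusted p = 0.000177) and 0.40 (SE 0.0715; edgeR adjusted p = 1.28e-05). MITF, best known from melanocytes, was at 4.14, 3.82 and 2.42 CPM in non-OSCs and 4.18, 2.12 and 3.62 CPM in OSCs. The MITF libraries of the groups overlapped, and its log2 fold change of -0.09 had a 95% interval from -0.67 to 0.49.

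Of the 11 hydrolases, 9 were higher in OSCs (81.8%, beside 32.5% of all genes tested) and HEXA and GUSB did not pass the test. The median log2 fold change of the group was 0.29. GAA (chromosome 17, 80101533 to 80119881), which degrades lysosomal glycogen, rose most among the hydrolases with at least 10 CPM, from 24.0, 33.9 and 33.1 CPM to 53.6, 48.3 and 52.2 CPM. Its groups did not overlap, and the log2 fold change was 0.76 (SE 0.102; edgeR adjusted p = 1.39e-07). NEU1, a sialidase, and CTSA, its protective protein, rose by 0.64 and 0.46 on the log2 scale. CTSD, GLA, CTSB, CTSZ and CTSL rose by 0.14 to 0.39, but the CTSZ and CTSL calls were lost with DESeq2 (adjusted p = 0.0731 and 0.113). The CTSZ call was also lost without non-OSC replicate 3 or OSC replicate 2 (edgeR adjusted p = 0.102 and 0.198), and the CTSL call when non-OSC replicate 1 or 2, or either OSC replicate 2 or 3, was left out (edgeR adjusted p = 0.0674 to 0.123). CTSK, a collagen-degrading protease known from osteoclasts, had a log2 fold change of 2.14 (SE 0.268) at low counts, with 26, 19 and 8 reads in the non-OSC and 66, 77 and 71 in the OSC libraries. The 5 osteoclast markers summed to between 48.8 and 56.0 CPM in non-OSCs and between 82.9 and 89.2 CPM in OSCs, a difference carried by MMP9 (mean 26.7 and 70.2 CPM). The other osteoclast markers were not higher alike: TNFRSF11A was at 13.2 and 8.5 CPM, OSCAR at 11.1 and 7.04 CPM and ACP5 at 0.215 and 0.242 CPM, and DCSTAMP was at 0 in OSCs. Pericyte markers (2 genes) summed to between 4.23 and 5.24 CPM in non-OSCs and between 20.5 and 23.6 CPM in OSCs, through ACTA2 (mean 4.36 and 21.6 CPM), while RGS5 was at 0.374 and 0.437 CPM. The part of these markers in the result was not tested.

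The cathepsin with the highest level, CTSB, was at 776, 761 and 795 CPM in non-OSCs and at 907, 912 and 941 CPM in OSCs, a rise of 0.24 on the log2 scale (SE 0.0388; edgeR adjusted p = 2.1e-06). CTSL (chromosome 9, 87724051 to 87731469) was at 101, 102 and 109 CPM against 112, 113 and 118 CPM. Its groups were apart by a small margin. HEXA, a subunit of the hexosaminidases that degrade gangliosides, was at 71.8, 67.8 and 73.3 CPM in non-OSCs and 66.8, 68.8 and 69.7 CPM in OSCs. GUSB, which cleaves glucuronic acid from glycosaminoglycans, was at 67.4, 75.9 and 68.1 CPM against 73.5, 76.5 and 75.9 CPM. The libraries overlapped for HEXA and GUSB, with 95% intervals of the log2 fold change from -0.19 to 0.08 and from -0.04 to 0.24.

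The 5 membrane and export genes went in both directions. NPC1 (chromosome 18, 23506184 to 23586506), the membrane protein that moves cholesterol out of the lysosome, was at 137, 133 and 135 CPM in non-OSCs and at 251, 250 and 260 CPM in OSCs. NPC2 (chromosome 14, 74476192 to 74494177), the soluble protein that hands cholesterol to NPC1, was at 129, 122 and 130 CPM in non-OSCs and at 78.4, 82.7 and 79.3 CPM in OSCs. The partners of this pathway had libraries fully apart in opposite directions, with log2 fold changes of 0.91 (SE 0.0503; edgeR adjusted p = 1.61e-16) for NPC1 and -0.66 (SE 0.061; edgeR adjusted p = 3.98e-11) for NPC2. LAMP1 (chromosome 13, 113297239 to 113323672) was at 192, 207 and 207 CPM in non-OSCs and 160, 168 and 171 CPM in OSCs. It fell by 0.28 on the log2 scale (SE 0.0523; edgeR adjusted p = 2.7e-05), whereas LAMP2, the other major membrane glycoprotein, rose by 0.51 (SE 0.0534; edgeR adjusted p = 5.77e-10). MCOLN1, a calcium channel of the lysosome, had a log2 fold change of -0.10 and did not pass the test.

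For the V-ATPase, 2 of 8 genes were higher in OSCs, 1 was lower and 5 did not pass the test. The shares higher and lower (25.0% and 12.5%) were below those of all genes tested (32.5% and 31.7%). ATP6AP1 (chromosome X, 154428633 to 154436516), an accessory subunit that helps assembly of the pump, was at 105, 114 and 107 CPM in non-OSCs and at 178, 178 and 188 CPM in OSCs. It rose by 0.74 on the log2 scale (SE 0.0563; edgeR adjusted p = 4.33e-13), and ATP6V1B2, the subunit that forms the ATP-hydrolysing head with ATP6V1A, rose by 0.42. ATP6V1A was at 71.0, 66.3 and 60.4 CPM in non-OSCs and 65.2, 52.2 and 51.3 CPM in OSCs. The ATP6V1A libraries of the groups overlapped, and its fall of 0.23 (edgeR adjusted p = 0.0183) was lost with DESeq2 (adjusted p = 0.0764) and with library size alone (0.0511). It was also lost without non-OSC replicate 1 or OSC replicate 2 or 3 (edgeR adjusted p = 0.0689, 0.138 and 0.143). ATP6V1D, a stalk subunit, was at 65.4, 64.0 and 57.7 CPM in non-OSCs and 78.4, 62.4 and 69.7 CPM in OSCs. Its log2 fold change of 0.16 had an edgeR adjusted p of 0.0725, or 0.0334 without non-OSC replicate 1, 0.0181 without OSC replicate 2, 0.0324 with library size alone and 0.0282 with the replicate block. The other subunits (ATP6V0D1, ATP6V0E1, ATP6V1C1 and ATP6V1H) had log2 fold changes between -0.04 and 0.07.

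Of the 10 autophagy genes, 7 were higher in OSCs and 1 was lower, with a median log2 fold change of 0.72. SQSTM1 (chromosome 5, 179806398 to 179838078) was at 165, 167 and 162 CPM in non-OSCs and at 475, 489 and 489 CPM in OSCs. GABARAPL1 (chromosome 12, 10212458 to 10223128), a relative of LC3 that is attached to autophagosome membranes, was at 8.95, 8.3 and 8.58 CPM in non-OSCs and at 46.3, 46.0 and 48.2 CPM in OSCs. WIPI1 (chromosome 17, 68420948 to 68457513) was at 10.1, 7.65 and 7.81 CPM against 36.3, 37.5 and 36.2 CPM. These genes had groups far apart relative to the spread within them: the log2 fold changes were 1.56 (SE 0.0456; edgeR adjusted p = 1.02e-23), 2.44 (SE 0.109; edgeR adjusted p = 6.06e-19) and 2.10 (SE 0.122; edgeR adjusted p = 5.28e-16). ATG14, ULK1, MAP1LC3B and NBR1 rose by 1.16, 0.94, 0.50 and 0.31 on the log2 scale.

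The conjugation enzyme gene ATG7 (chromosome 3, 11272309 to 11557665) was at 32.5, 32.7 and 30.7 CPM in non-OSCs and at 23.6, 20.3 and 18.6 CPM in OSCs, a fall of 0.62 on the log2 scale (SE 0.105; edgeR adjusted p = 5.67e-06). ATG5, part of the same conjugation machinery, was at 34.4, 28.4 and 31.0 CPM against 34.7, 34.4 and 29.2 CPM. BECN1 was at 33.7, 32.3 and 31.2 CPM against 27.8, 31.6 and 30.4 CPM. The libraries of the groups overlapped for ATG5 and BECN1, whose log2 fold changes of 0.07 and -0.11 did not pass the test. Some of these genes share exon sequence with genes on the opposite strand, and whether counting used strand is not given in the sources used here. The shares of exon bases covered were 22.4% for SQSTM1 (by MRNIP and MGAT4B) and 28.1% for WIPI1 (mainly by ARSG, with 28 to 66 reads per library). They were 18.1% for ATG7 (by VGLL4), 17.1% for BECN1 (mainly by PSME3) and 8.99% for GLA (by RPL36A). In OSCs against non-OSCs, MGAT4B (1505 to 2394 reads per library) had a log2 fold change of 0.54, and MRNIP one of 0.18. Those of VGLL4 (353 to 758 reads) and ARSG were 0.75 and 0.78. PSME3 (897 to 1820 reads) and RPL36A (2518 to 5574 reads) had -0.58 and -0.72. FBXO34, which covers 20.8% of the ATG14 exons, itself had a log2 fold change of 1.17. CTSZ had 31.7% of its exon bases covered by NELFCD, which held more reads than CTSZ itself (1218 to 1916 per library) and had a log2 fold change of -0.25, and CTSA had 21.5% covered by opposite-strand genes. Same-strand genes without symbols (ENSG00000250644 and ENSG00000229512) together cover 27.3% of the CTSD exons, and the former had a log2 fold change of 1.20. With shPDK1#2 against shCtrl, the log2 fold changes were -0.14 for MGAT4B (edgeR adjusted p = 0.0268), 0.15 for MRNIP and -0.39 for ARSG (edgeR adjusted p = 0.22). Those of FBXO34 and PSME3 were -0.11 and 0.10. VGLL4, RPL36A, NELFCD and ENSG00000250644 had 0.25, 0.32, 0.16 and 0.50. How reads of the overlapping stretches were divided between the genes is not known from these counts.

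**Figure D3:**
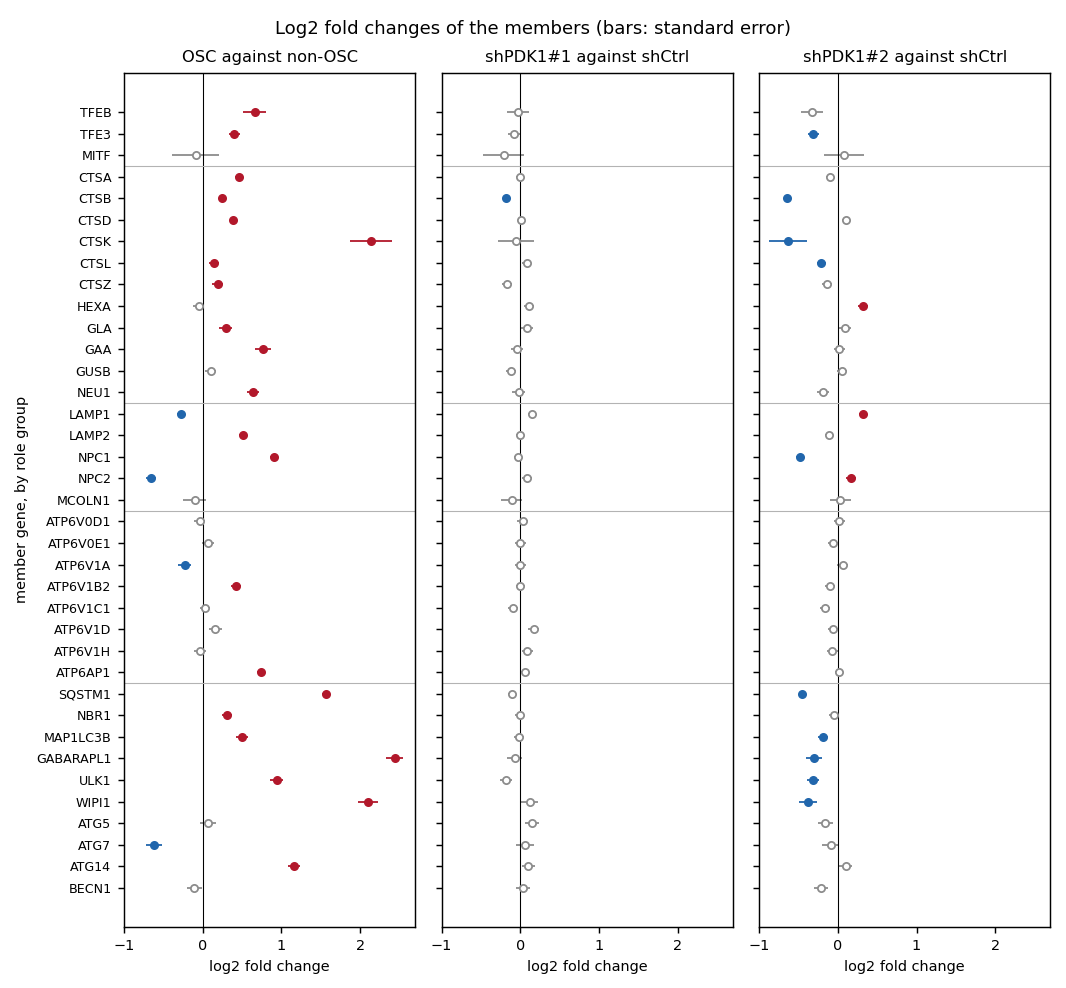
Log2 fold change of the 37 genes in 3 comparisons (OSC against non-OSC, shPDK1#1 against shCtrl, shPDK1#2 against shCtrl), with bars for the standard error of edgeR's fit; filled points passed an edgeR adjusted p under 0.05, red higher and blue lower, and open points did not. In OSCs 22 points are filled red and 4 blue, with shPDK1#1 1 is filled, and with shPDK1#2 3 are red and 10 blue.

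How PDK1 knockdown changed these genes in spheres was asked with 2 hairpins. With shPDK1#1, CTSB fell by 0.18 on the log2 scale (SE 0.0363; edgeR adjusted p = 0.00144), and the other 36 genes did not pass the test. The second hairpin, shPDK1#2, left less PDK1. Each hairpin is 1 construct, so depth of knockdown and other effects of a hairpin cannot be told apart. With shPDK1#2, 10 of the 37 fell and 3 rose. The genes that fell were TFE3, the proteases CTSB, CTSL and CTSK, the cholesterol exporter NPC1 and 5 autophagy genes (SQSTM1, ULK1, WIPI1, GABARAPL1 and MAP1LC3B). LAMP1, HEXA and NPC2 rose. The log2 fold changes of the 37 lay between -0.21 and 0.17 with shPDK1#1. They lay between -0.65 and 0.32 with shPDK1#2, against -0.66 to 2.44 in OSCs, so the last 2 ranges differed at the upper end. Of the genes called with shPDK1#2, CTSB, CTSL, HEXA and LAMP1 had larger estimates there (-0.65, -0.21, 0.32 and 0.32). In OSCs against non-OSCs theirs were 0.24, 0.14, -0.05 (not called) and -0.28. The other genes called with shPDK1#2 had smaller estimates than in OSCs.

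The share of all 14574 genes tested that were called was 1.74% higher and 1.56% lower with shPDK1#1, beside 1 of the 37 lower (2.7%). For genes higher with shPDK1#1, edgeR's test gave 0 of the 37 at an adjusted p under 0.05, 2 at an unadjusted p under 0.05, and DESeq2 gave 0. For genes lower, the counts in the same order were 1, 4 and 1. Without shPDK1#1 replicate 1, LAMP1 was also called higher (edgeR adjusted p = 0.0365), and without shPDK1#1 replicate 2, ULK1 was also called lower (edgeR adjusted p = 0.0428). With shPDK1#2, 12.4% of all genes tested were higher and 14.5% lower, beside 3 (8.11%) and 10 (27.0%) of the 37. Without shPDK1#2 replicate 1 the count of genes lower was 6. The median log2 fold change of the 37 was -0.01 with shPDK1#1 and -0.10 with shPDK1#2, where that of all genes tested was 0.00 and 0.01. The shPDK1#2 libraries lay wholly below the shCtrl libraries for 16 of the 37 and wholly above for 4, against 20.0% and 19.5% of all genes tested. With shPDK1#1 these counts were 4 and 3, against 9.52% and 9.77%.

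CTSB was at 787, 736 and 778 CPM in the shCtrl libraries, at 663, 687 and 679 CPM with shPDK1#1 and at 476, 495 and 497 CPM with shPDK1#2. The 3 groups did not overlap, and the shPDK1#2 level was 63.8% of the control (log2 fold change -0.65, SE 0.0367; edgeR adjusted p = 6.21e-18). CTSL was at 95, 98.7 and 98.8 CPM in shCtrl, 107, 105 and 98.8 CPM in shPDK1#1 and 86.3, 81.3 and 85.4 CPM in shPDK1#2 libraries, and fell by 0.21 with shPDK1#2 (SE 0.0574; edgeR adjusted p = 0.00485). HEXA was at 61.3, 66.6 and 65.2 CPM in shCtrl, 66.5, 71.1 and 71.1 CPM in shPDK1#1 and 81.4, 83 and 76.4 CPM in shPDK1#2 libraries. All 3 shPDK1#2 libraries were above the others for HEXA, which rose by 0.32 (SE 0.064; edgeR adjusted p = 0.000147). GAA, the hydrolase that rose most in OSCs among those with at least 10 CPM, was at 47.7, 47.1 and 45 CPM in shCtrl, 44.3, 45.2 and 46.7 CPM in shPDK1#1 and 48.0, 48.9 and 45.3 CPM in shPDK1#2 libraries. Its groups overlapped, with 95% intervals of the log2 fold change from -0.18 to 0.11 and from -0.12 to 0.17. CTSK fell with shPDK1#2 (log2 fold change -0.63; edgeR adjusted p = 0.0445), but its libraries overlapped and the call was lost with DESeq2 (adjusted p = 0.072) and without shCtrl replicate 2 or 3 or shPDK1#2 replicate 1 or 2 (edgeR adjusted p = 0.104 to 0.21). The osteoclast marker list summed to between 57.5 and 61.4 CPM in shCtrl, 40.1 and 48.1 CPM in shPDK1#1 and 30.6 and 36.3 CPM in shPDK1#2 libraries, where ACP5 was at 0. Its genes did not move together: MMP9 had means of 48.3, 31.9 and 21.2 CPM in that order, and TNFRSF11A, the receptor for the osteoclast cytokine RANKL, means of 6.5, 7.53 and 11.1 CPM. The pericyte list, nearly all ACTA2, summed to between 17.7 and 22.1, 15.6 and 16.7, and 15.2 and 18.1 CPM. The part of either list in these results was not tested.

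NPC1 was at 158, 151 and 167 CPM in shCtrl, 143, 159 and 163 CPM in shPDK1#1 and 111, 117 and 113 CPM in shPDK1#2 libraries. Only the shPDK1#2 libraries were apart from the control, at 71.8% of its level (log2 fold change -0.48, SE 0.054; edgeR adjusted p = 2.64e-09). NPC2 was at 70.0, 68.5 and 74.8 CPM, 76.0, 74.9 and 75.9 CPM, and 83, 76.2 and 80.4 CPM in the same order. It rose by 0.17 with shPDK1#2 (SE 0.0623; edgeR adjusted p = 0.0377), a call lost without the filter on low counts (adjusted p = 0.0636) and with library size alone (0.056). That call was also lost without shCtrl replicate 1 or 2 or shPDK1#2 replicate 1 or 3 (edgeR adjusted p = 0.0948 to 0.164). LAMP1 was at 159, 165 and 149 CPM in shCtrl, 163, 178 and 184 CPM in shPDK1#1 and 194, 204 and 194 CPM in shPDK1#2 libraries. All shPDK1#2 libraries exceeded the others for LAMP1, which rose by 0.32 (SE 0.05; edgeR adjusted p = 2.41e-06), and its log2 fold change with shPDK1#1 was 0.15 (edgeR adjusted p = 0.104, or 0.0365 without shPDK1#1 replicate 1).

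SQSTM1 was at 285, 290 and 303 CPM in shCtrl, 274, 276 and 265 CPM in shPDK1#1 and 204, 232 and 206 CPM in shPDK1#2 libraries. The 3 groups did not overlap, but only the fall of 0.45 with shPDK1#2 passed the test (SE 0.0459; edgeR adjusted p = 2.2e-10); with shPDK1#1 the log2 fold change was -0.11 (edgeR adjusted p = 0.228). WIPI1 was at 26.7, 22.7 and 23.8 CPM, 27.7, 24.9 and 27.3 CPM, and 15.4, 19.7 and 21.5 CPM in the same order. GABARAPL1 was at 34.6, 27.1 and 28.5 CPM, 28.8, 27.5 and 29.7 CPM, and 23.9, 22.9 and 26.2 CPM. For both genes the shPDK1#2 libraries were below all shCtrl libraries, with falls of 0.38 (edgeR adjusted p = 0.00965) and 0.30 (edgeR adjusted p = 0.0183). Without shCtrl replicate 1, the highest for both, these became falls of 0.31 (adjusted p = 0.0821) and 0.19 (adjusted p = 0.219), and without shPDK1#2 replicate 1 the fits gave adjusted p = 0.136 and 0.0611. The GABARAPL1 call was also lost without shPDK1#2 replicate 2 (adjusted p = 0.0742). ULK1 and MAP1LC3B fell by 0.31 and 0.19, the latter not past the threshold without shCtrl replicate 1 or 3 or shPDK1#2 replicate 1 or 2 (edgeR adjusted p = 0.0505 to 0.107), and ATG14, NBR1 and ATG7 had log2 fold changes of 0.10, -0.05 and -0.09 that did not pass the test. BECN1, at -0.21, passed only without shPDK1#2 replicate 2 (edgeR adjusted p = 0.0406).

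**Figure D4:**
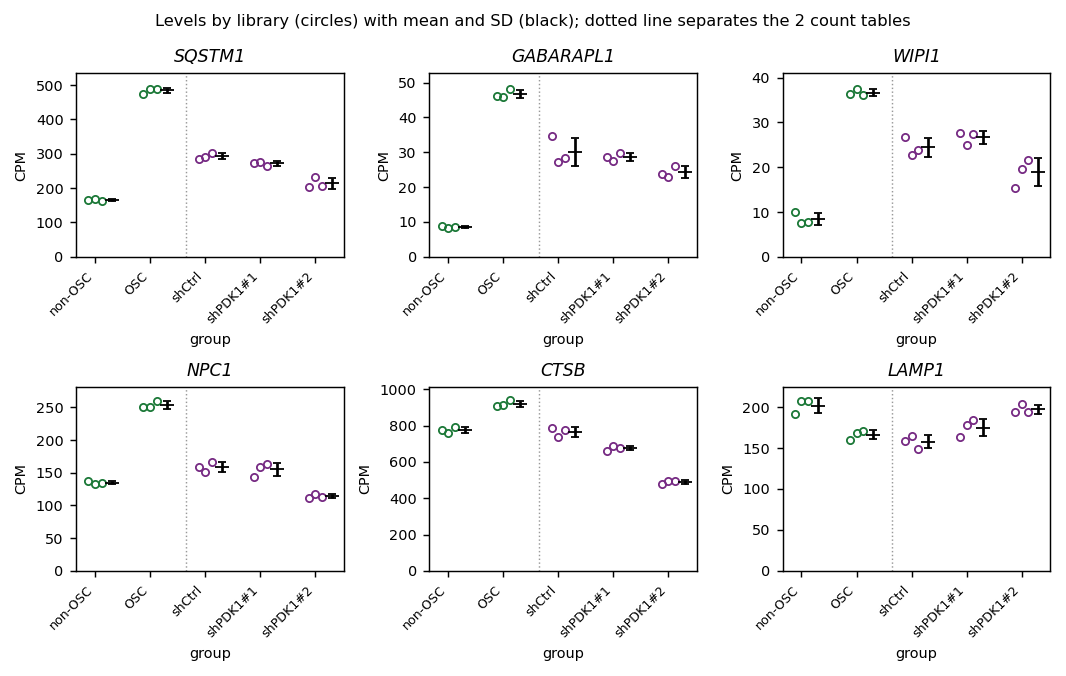
CPM in every library for SQSTM1, GABARAPL1, WIPI1, NPC1, CTSB and LAMP1 in the 5 conditions (circles: libraries; black: mean and SD of 3), with the y axes starting at 0; the first 2 conditions and the last 3 come from separately normalized tables. SQSTM1 sits between 162 and 167 CPM in non-OSCs and between 475 and 489 CPM in OSCs, and CTSB between 476 and 497 CPM with shPDK1#2.

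TFE3 was at 63.7, 59.8 and 66.0 CPM in shCtrl, 55.9, 64.8 and 58.6 CPM in shPDK1#1 and 47.4, 54.5 and 51.3 CPM in shPDK1#2 libraries. It fell by 0.31 with shPDK1#2 (SE 0.0733; edgeR adjusted p = 0.00129), with all of those libraries below the control. TFEB was at 16, 11.8 and 15.6 CPM, 13.0, 13.2 and 15.8 CPM, and 11, 11.7 and 11.8 CPM in the same order. Its shPDK1#2 libraries were just below the lowest control library, and the log2 fold change of -0.33 (SE 0.139) had an edgeR adjusted p of 0.0759, or 0.0203 without shCtrl replicate 2. MITF was at 4.81, 3.91 and 3.97 CPM, 3.1, 3.97 and 3.83 CPM, and 3.53, 3.43 and 6.55 CPM, with overlapping groups. The 8 V-ATPase genes did not pass the test with either hairpin, but ATP6V1C1 (log2 fold change -0.16 with shPDK1#2; edgeR adjusted p = 0.0539) passed with library size alone (0.0395), with the replicate block (0.0342), with only the compared groups (0.027) and without shPDK1#2 replicate 3 (0.0421). ATP6AP1 was at 158, 149 and 156 CPM in shCtrl, 165, 168 and 151 CPM in shPDK1#1 and 153, 160 and 152 CPM in shPDK1#2 libraries. ATP6V1A was at 60.4, 59.4 and 62.9 CPM, 64.7, 55.8 and 62.1 CPM, and 63.3, 58.8 and 68.2 CPM. Of the 8, edgeR gave 1 at an unadjusted p under 0.05 with each hairpin, and DESeq2 called 0 with each.

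The hairpins were also tested against each other, which shows where they differ. Of the 37 genes, 9 were lower with shPDK1#2 than with shPDK1#1 and 3 were higher, where 10% and 6.77% of all genes tested were lower and higher. The count of genes higher was 0 without shPDK1#1 replicate 1 or shPDK1#2 replicate 2 and 1 without shPDK1#2 replicate 1, and the count of genes lower lay between 6 and 9 over the libraries left out. CTSB and NPC1 had the smallest adjusted p-values, with log2 differences of -0.47 (SE 0.0367; edgeR adjusted p = 4.06e-13) and -0.45 (SE 0.0538; edgeR adjusted p = 2.29e-08), followed by SQSTM1 at -0.34 (SE 0.0459; edgeR adjusted p = 2.92e-07). WIPI1, CTSL and TFE3 were lower by 0.50, 0.29 and 0.23 on the log2 scale, and HEXA and LAMP1 higher by 0.21 and 0.17. Leaving out shPDK1#1 replicate 2 or 3 or shPDK1#2 replicate 1 or 3 ended the TFE3 call (edgeR adjusted p = 0.0506 to 0.161), shPDK1#1 replicate 1 or shPDK1#2 replicate 1 or 2 the HEXA call (0.0696 to 0.0869), and shPDK1#1 replicate 1 or shPDK1#2 replicate 2 the LAMP1 call (0.108 and 0.0509). The remaining calls were of genes that neither hairpin moved past the threshold against shCtrl. ATP6V1D was at 62.0, 52.6 and 60.8 CPM in shCtrl, 64.2, 67.1 and 66.1 CPM in shPDK1#1 and 57.7, 53.9 and 56.7 CPM in shPDK1#2 libraries. ATG5 was at 29.1, 31.5 and 30.6 CPM, 35.8, 30.1 and 35.2 CPM, and 28.4, 26.2 and 26.8 CPM in the same order. BECN1 was at 33.9, 33.2 and 34.8 CPM, 35.4, 37.3 and 32.5 CPM, and 29.9, 31.8 and 26.1 CPM. For these genes the shPDK1#2 libraries were all below the shPDK1#1 libraries, and for GUSB they were all above. GUSB was at 78.2, 78.3 and 74.2 CPM in shCtrl, 67.4, 73.7 and 70.8 CPM in shPDK1#1 and 80.2, 84.7 and 74.8 CPM in shPDK1#2 libraries. The GUSB difference of 0.18 (edgeR adjusted p = 0.049) and the BECN1 difference of -0.26 (edgeR adjusted p = 0.0437) were lost when only the compared groups were fitted (adjusted p = 0.0706 and 0.0617), and each without 4 of the 6 libraries in turn. Both were also lost without the filter on low counts (edgeR adjusted p = 0.0702 and 0.0642). The GUSB call was lost with library size alone (edgeR adjusted p = 0.051) and the BECN1 call with DESeq2 (adjusted p = 0.0563). ATP6V1D and ATG5 were lower by 0.23 and 0.31, calls lost without shPDK1#1 replicate 3 (edgeR adjusted p = 0.0612 and 0.0879) or shPDK1#2 replicate 2 (0.0774 and 0.0519), and for ATG5 also without shPDK1#1 replicate 1 (0.0662).

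Because the tables share no library, the calls in OSCs and with shPDK1#2 can be set side by side. All 10 genes that fell with shPDK1#2 were higher in OSCs than in non-OSCs, and they are 45.5% of the 22 genes higher in OSCs. Of the 37 as a whole, 59.5% were higher in OSCs, against 32.5% of all genes tested in that table. Some of these calls were lost under alternatives: that of CTSL in OSCs, and those of CTSK, MAP1LC3B, GABARAPL1 and WIPI1 with shPDK1#2. Among all genes tested in both tables, 67.8% of those lower with shPDK1#2 were higher in OSCs, which is 30.9% of the genes higher in OSCs. Of the 3 genes that rose with shPDK1#2, LAMP1 and NPC2 were lower in OSCs (66.7%; 61.6% among all genes) and HEXA did not differ past the threshold. ATG14, GAA, ATP6AP1 and LAMP2 are among the 12 genes that were higher in OSCs and not called with shPDK1#2.

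A further 173 genes of the same pathways were listed in 5 groups, and 160 of them were tested in the OSC table. There, 67 were higher and 33 lower in OSCs (41.9% and 20.6%), beside 32.5% and 31.7% of all genes tested. The gene named for each group is the one with the largest change among its called genes with a mean of at least 10 CPM in the table. Other hydrolases and activators were higher in 18 and lower in 7 of 39, led by IDS, a sulfatase of glycosaminoglycan breakdown, which rose from 114 ± 10.6 to 448 ± 15.1 CPM (SD, n = 3 each). Other membrane and sorting genes were higher in 6 and lower in 10 of 32 (18.8% and 31.2%), and the largest change past the threshold was a rise of 1.24 on the log2 scale in SLC17A5, the sialic acid exporter. Other V-ATPase genes were higher in 6 and lower in 2 of 14, with DMXL1, a pump assembly factor, at 0.72. Other autophagy genes were higher in 23 and lower in 7 of 43, and DEPP1, which is linked to FOXO-driven autophagy, rose from 4.43 ± 0.691 to 65.3 ± 1.62 CPM (log2 fold change 3.87). Genes of mTORC1 and Rag control of TFEB were higher in 14 and lower in 7 of 32, with DDIT4, an mTORC1 inhibitor induced by stress, at 1.38. Below a mean of 10 CPM, 2 called genes of these lists had larger changes than DDIT4 and DMXL1. CASTOR1, of the mTORC1 list, rose by 2.05, and ATP6V1E2, of the V-ATPase list, fell by 0.92.

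In the shRNA table, 162 of these genes were tested. With shPDK1#1, 5 rose and 1 fell (3.09% and 0.617%, beside 1.74% and 1.56% of all genes tested). DDIT4 rose by 1.21 on the log2 scale, DEPP1 by 0.43, PPT1, a lysosomal thioesterase, by 0.26 and LAPTM4B by 0.15. The gene that fell was IDS, by 0.20 (SE 0.0433; edgeR adjusted p = 0.00398). With shPDK1#2, 16 rose and 20 fell (9.88% and 12.3%, beside 12.4% and 14.5% of all genes tested). They were divided as follows: 8 rose and 3 fell of 39 hydrolases and activators, 2 rose and 5 fell of 32 membrane and sorting genes, 3 fell of 15 V-ATPase genes, 2 rose and 5 fell of 43 autophagy genes, and 4 rose and 4 fell of 33 mTORC1 and Rag genes. DDIT4 was higher with both hairpins, at 268 ± 5.99 CPM for shPDK1#1 and 276 ± 9.89 CPM for shPDK1#2 beside 116 ± 1.52 CPM in the control libraries (SD, n = 3 each). Among called genes with a mean of at least 10 CPM, the largest change with shPDK1#2 in each of the other 4 groups was a fall: IDS by 0.71, ATG16L1, which directs LC3 attachment, by 0.59, PLEKHM1, a tether for fusion with lysosomes, by 0.36 and DMXL2 by 0.28. Below that level, CTSS and LAPTM5 had larger falls, of 1.23 and 1.08, at means of 3.11 and 2.26 CPM in the control libraries. Of the genes named with shPDK1#1, PPT1 and LAPTM4B also rose with shPDK1#2, by 0.48 and 0.30. DEPP1 did not pass the test there (log2 fold change 0.04, edgeR adjusted p = 0.781). Both hairpins were set against the same 3 shCtrl libraries, so changes called with both, such as the falls of IDS, share their controls.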

How the data were processed

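RNA from 15 libraries of 143B cells was sequenced as paired ends on an Illumina NovaSeq. Per the study's methods, reads were trimmed (Trimmomatic 0.39), quality-checked (FastQC 0.12.1) and mapped by STAR 2.7.11a onto GRCh38.p14. The authors deposited 2 tables of unnormalized expected counts, estimated per gene by RSEM 1.3.3. The annotation and strandedness are not given in the sources used here. Column names starting with S2D and S3D were read as non-OSC and OSC from the culture formats in the study's methods, and those starting with con and PDK1 as shCtrl and the hairpins. No columns were left unmapped, and tests stayed within a table. RSEM splits reads between matching transcripts, so 6.85% and 6.92% of values were not whole, and expected counts were rounded.

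All 62700 identifiers matched GENCODE 44. edgeR 4.0.16 in R 4.3.3 was used (TMM, filterByExpr by condition, quasi-likelihood test, Benjamini-Hochberg adjustment over all genes tested, threshold 0.05), with 6 libraries in the first fit and 9 in the second. SE is the absolute log2 fold change over the root of F, and 95% intervals are 1.96 SE either side. Tests were first run on simulated data. Plots used Python 3.11.15 with matplotlib 3.10.9. Alternatives were DESeq2 1.42.0 with its size factors, a fit of only the compared groups, a replicate block, library size alone, no filter, a minimum of 10 counts in all libraries, the 8-base motif, and each library left out. The MANE length was added after seeing the data. Depth was 7992499 to 11256536 counts per library.

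The 37 genes, the 5 lists of related genes and the marker lists were chosen with earlier results of these data known. Values in every library are given for TFEB, TFE3, MITF, PDK1, the called gene with the largest rise and fall of each other role group in each contrast with a control (mean of at least 10 CPM), and each gene called with both hairpins or between them. Other genes named were chosen after their values were seen, except the leading gene of each related list.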

Additional observations from a re-analysis of the deposited data

Results flagged for a closer look

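Effects of the 2 hairpins were compared directly (shPDK1#2 against shPDK1#1, edgeR's quasi-likelihood test), and 12 of the 37 genes differed between them at an adjusted p under 0.05. On the log2 scale, the differences of genes lower with shPDK1#2 were -0.50 for WIPI1, -0.47 for CTSB, -0.45 for NPC1, -0.34 for SQSTM1, -0.31 for ATG5, -0.29 for CTSL, -0.26 for BECN1 and -0.23 for TFE3 and ATP6V1D. Those of genes higher with shPDK1#2 were 0.21 for HEXA, 0.18 for GUSB and 0.17 for LAMP1. The calls of TFE3, ATP6V1D, ATG5, BECN1, HEXA, GUSB and LAMP1 were each lost under some alternatives. PDK1 itself differed by -0.50 in the same contrast (edgeR adjusted p = 0.000109). Depth of knockdown and other differences between the hairpins cannot be told apart here. Dixon's rule for single libraries was not applied, since each group has 3 libraries.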

How the results depend on the processing

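No gene changed direction under an alternative while called. The number of genes higher and lower in OSCs was 20 to 23 and 3 to 4 across the alternatives that kept all libraries, and 21 to 22 and 3 to 4 when 1 library was left out. With shPDK1#1 leaving out 1 library gave 0 to 1 genes higher and 1 to 2 lower, with shPDK1#2 2 to 3 higher and 6 to 11 lower, and between the hairpins 0 to 4 higher and 6 to 9 lower. With the motif TCACGTGA in place of CACGTG, 5 promoters held it, not 8. Same-numbered samples share only a number: their deviations from the group means correlated between -0.0539 and 0.0948. The fit with a replicate block called 23 and 4 genes in OSCs, 0 and 1 with shPDK1#1, 3 and 12 with shPDK1#2, and 3 and 10 between the hairpins. The causes of changed calls were not tested. Fits without a library lean on the spread of the others. The floor of counting is set by depth: MITF (21 to 63 reads) and CTSK (8 to 77 reads) had the widest intervals.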
